A study of Mus musculus with 908 samples.

Results

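The suprabasal keratins Krt1, Krt10, Krt77, Krt78, Krt79 and Krt80 were followed through cells of a mouse squamous cell carcinoma of the skin, each sequenced alone. They were chosen by symbol, and all 6 were found, each on 1 of the 46517 gene rows of the expression tables. Cells were sorted by flow cytometry into single wells and sequenced by Smart-seq2, a full-length and unstranded protocol, in a study of tumour cells before and after adoptive transfer of immune cells. Cells positive for CD45, CD117, CD140a or CD31 were kept out of all 5 groups. The animals were 60 to 90 days old, the label for sex is "Mixed", and no label names an animal, so each group is 1 sample and no test, p-value or SE between groups was computed.

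Before therapy the strain was TRE-HrasG12V;SBE-mCherry-PGK-rtTA3, which joins a tetracycline-responsive activated Hras to a reporter of TGF-beta signalling. In this strain mCherry marks cells that respond to TGF-beta. The reporter-positive gate (2 plates of 73 and 32 cells) held cells positive for integrin α6, CD34, CD44 and mCherry. The CD44-positive gate (15 cells) was positive for α6 and CD44 and lacked CD34 and mCherry. The CD44-negative gate (91 cells) was positive for α6 alone. The α6-negative gate (43 cells) lacked α6, CD34, CD44 and mCherry. After therapy the strain was TRE-OVA;TRE-HrasG12V:PGK-rtTA3P2AmCherry, with an ovalbumin transgene beside Hras. There mCherry is joined to the constitutively driven rtTA3, so it marks tumour cells rather than TGF-beta response. The group after transfer (2 plates of 87 and 90 cells) was sorted on mCherry alone, without α6, CD34 or CD44. Strain, gate and therapy therefore change together between the groups before and after transfer and cannot be told apart.

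The values are TPM, which divide reads by transcript length and scale each library to the same sum, and a transcript counted as detected at a TPM of at least 1. Libraries with at least 2000 detected genes were kept, with medians of 5521 to 7769 genes per plate. Markers of keratinocytes led in all cells of the reporter-positive, CD44-negative and after-transfer groups. They led in 12 of 15 CD44-positive cells and in 26 of 43 α6-negative cells, where fibroblast markers led in 13 and pericyte or muscle markers in 4. Transcripts linked to the Y chromosome without Xist were detected in 99 reporter-positive, 39 α6-negative and 170 after-transfer cells, and in none of the CD44-positive cells. The CD44-negative gate held 44 such cells, all in rows E to H of its plate, and 42 with Xist alone, all in rows A to D. Labels also disagree with well-by-well matches of libraries. Of the kept reporter-positive libraries, 71 on the first plate and 29 on the second were mutual best matches, well by well, of libraries labelled after therapy, as were 14 of 15 CD44-positive ones. Those repeat libraries were left out of the groups, and every result on these 2 gates rests on the label before therapy.

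Keratins are intermediate filament proteins that assemble as pairs of a type I and a type II chain. Basal keratinocytes make Krt5 with Krt14. On leaving the basal layer they switch to Krt1, a type II chain, with its type I partner Krt10, and this pair is the textbook mark of early differentiation. Krt77, Krt78, Krt79 and Krt80 are type II chains of upper layers or of skin appendages. Krt79 is known from the infundibulum of the hair follicle and the sebaceous duct, and Krt80 from the cell margins of differentiating epithelia. The 6 genes lie in the 2 keratin clusters of the genome. In GENCODE M21 on GRCm38 (mm10), Krt10 spans chr11:99385254-99389364 on the minus strand and overlaps the antisense gene Gm11940, whose reads an unstranded library cannot tell apart from its own. The 5 type II genes lie on the minus strand of chromosome 15. Krt1 (chr15:101845426-101850794) and Krt77 (chr15:101858731-101869705) are neighbours with 7936 bases between them. Krt79 (chr15:101929332-101940324) and Krt78 (chr15:101946001-101954287) are neighbours with 5676 bases between them. Krt80 (chr15:101347444-101370162) lies 475263 bases from Krt1, with 20 protein-coding genes between, and overlaps the antisense genes Gm35853 and Mir1941.

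RefSeq's table on GRCm38.p6 gave the bases before the start site for 4 of the 6 members, and not for Krt1 or Krt80. The 250 bases before the starts of Krt10 and Krt79 are shown because Krt10 and Krt79 had their highest means in different groups. They are written 5′ to 3′ on the minus strand, at chr11:99389365-99389614 and chr15:101940325-101940574, and capitals mark the TATA motif TATAAA.
Krt10: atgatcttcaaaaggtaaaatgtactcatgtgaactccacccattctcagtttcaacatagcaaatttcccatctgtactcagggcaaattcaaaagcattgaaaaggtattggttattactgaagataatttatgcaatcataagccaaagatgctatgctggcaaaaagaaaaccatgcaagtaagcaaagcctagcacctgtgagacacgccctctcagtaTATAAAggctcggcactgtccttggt
Krt79: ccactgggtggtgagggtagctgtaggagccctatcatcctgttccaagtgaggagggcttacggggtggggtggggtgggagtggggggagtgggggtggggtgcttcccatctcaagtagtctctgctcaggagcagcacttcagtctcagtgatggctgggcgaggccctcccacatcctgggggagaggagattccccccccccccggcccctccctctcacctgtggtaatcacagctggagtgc
TATAAA was found 26 bases before the start of Krt10 and not in this window of Krt77, Krt78 or Krt79. Only this exact hexamer was searched, so variants were not counted, such as the TATATATA in the Krt77 window. Over all 32851 RefSeq windows of the same length, 12.4% held TATAAA on either strand. The AP-1 motif TGANTCA, which is its own reverse complement, was in none of the 4 windows and in 6.75% of all windows. The Krt10 window was 39.6% G and C and the Krt79 window 64%, against a median of 52.4% over all windows.

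Krt1 was the most abundant member in 4 of the 5 groups and was high in a minority of cells everywhere. In the reporter-positive gate its lowest, median and highest values were 0, 5.96 and 1760 TPM, with a mean of 42.1. In the CD44-positive gate they were 0, 0 and 812 TPM, with a mean of 99.1. In the CD44-negative gate they were 0, 26.4 and 5628 TPM, with a mean of 562. Reporter-positive cells of the first plate mostly had a little Krt1 and rarely much (median 7.22 TPM). On the second reporter-positive plate the median was 0, with Krt1 in 14 of 32 cells. In the α6-negative gate the values were 0, 0 and 4598 TPM, with a mean of 212.91. After transfer they were 0, 46.2 and 7428 TPM, with a mean of 644. The order of the means was after transfer, CD44-negative, α6-negative, CD44-positive and reporter-positive. Cells without Krt1 occurred in each group, so all ranges over cells overlapped.

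**Figure D1:**
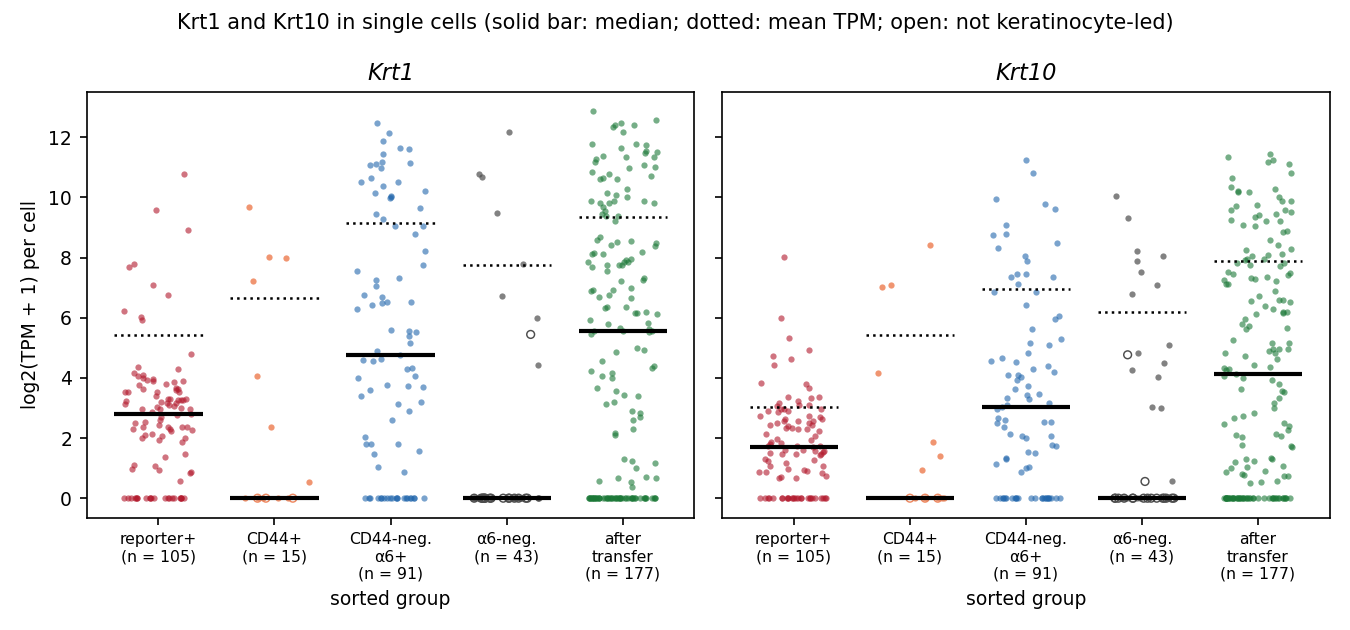
Level of Krt1 (left) and Krt10 (right) in each cell as log2(TPM + 1), by sorted group; the solid bar is the median, the dotted bar the mean TPM on the same scale, and open circles are cells led by fibroblast, pericyte or muscle markers. Most reporter-positive cells lie at low values or are without Krt1, with a median Krt1 of 5.96 TPM, while the CD44-negative and after-transfer groups spread up to 5628 and 7428 TPM.

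The reporter-positive and CD44-negative gates had like shares of cells with Krt1 as a whole and unlike shares with much of it. Krt1 was detected in 74.3% of reporter-positive cells (exact Clopper-Pearson 95% interval 64.8% to 82.3%) and in 75.8% of CD44-negative cells (65.7% to 84.2%). At 100 TPM or more the shares were 6.67% (2.72% to 13.3%) and 37.4% (27.4% to 48.1%). The like shares with any Krt1 are sums of unlike parts: 87.7% (77.9% to 94.2%) and 43.8% (26.4% to 62.3%) on the 2 reporter-positive plates, and all CD44-negative cells with Y-linked transcripts alone against 21 of 42 with Xist alone. After transfer 66.7% of cells had Krt1 (59.2% to 73.6%) and 42.4% had at least 100 TPM (34.99% to 50.01%). These intervals cover the counting of cells only. In the CD44-positive gate Krt1 was detected in 6 of 15 cells, 4 of them above 100 TPM (147.10, 249.81, 257.25 and 812.33), and all 6 were led by keratinocyte markers. The libraries at 249.81 and 257.25 TPM matched each other (r = 0.92 over all genes), and whether they are separate cells was not tested. In the α6-negative gate it was detected in 9 of 43 cells, 8 of them among the 26 led by keratinocyte markers. Of the 17 α6-negative cells led by fibroblast, pericyte or muscle markers, which are not expected to make keratins, 1 had Krt1 (42.5 TPM), 1 had Krt10 (26.2 TPM), 1 had Krt79 (26.9 TPM) and 1 had Krt80 (6.25 TPM).

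Krt10, the type I partner, followed the same order of means at lower levels. Its mean was 7.15 TPM in the reporter-positive gate, where the median was 2.25 and the highest cell had 257.13 TPM. The CD44-positive gate had a mean of 41.998 TPM, a median of 0 and a highest value of 343.83. The CD44-negative gate had a mean of 122.97 TPM, a median of 7.21 and a highest value of 2420. Among reporter-positive cells 65.7% had Krt10, but it reached 100 TPM in 1 of them, against 19 of 91 CD44-negative cells. In the α6-negative gate its mean was 71.2 TPM, its median 0 and its highest value 1045. After transfer the mean was 236.58 TPM, the median 16.4 and the highest value 2762, and 32.2% of cells had at least 100 TPM. A few cells carried much of each sum: the top 5 cells held 77.3% of the Krt1 sum in the reporter-positive gate, 39.5% in the CD44-negative gate and 26.5% after transfer.

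Plates and sex-linked transcripts moved with these shares. Within the reporter-positive gate Krt1 was detected in 64 of 73 cells of the first plate and 14 of 32 of the second, and Krt10 in 58 and 11. The mean Krt1 was 48.1 and 28.5 TPM on the 2 plates, both below every other group. After transfer Krt1 was detected in 46 of 87 and 72 of 90 cells on the 2 plates, with means of 595 and 692 TPM. In the CD44-negative gate all 44 cells with Y-linked transcripts alone had Krt1, with a median of 67.5 and a mean of 807 TPM. Of the 42 cells with Xist alone, 21 had Krt1, with a median of 0.94 and a mean of 356.36 TPM. Krt10 was detected in 42 of the 44 and in 19 of the 42. The cells of this gate with Y-linked transcripts thus had Krt1 and Krt10 more often than those with Xist, and sex-linked transcripts and the rows of the plate cannot be told apart there. The first plate after transfer, where Xist alone was in no cell, also differed by position, with Krt1 in 14 of 47 cells in rows A to D and 32 of 40 in rows E to H. On the second plate after transfer Krt1 was in 37 of 44 and 35 of 46 cells of these rows. On the second reporter-positive plate Krt1 was in 11 of 21 and 3 of 11 cells of these rows, and Krt10 in 9 and 2. On the first reporter-positive plate Krt1 was in 35 of 39 and 29 of 34. The part of plate position in the comparisons was not tested beyond these values. The number of genes per library moved with Krt1 after transfer (Pearson r = -0.34 over the cells of that group, each a library of its own depth). There 0 of the 9 cells with 8000 genes or more had Krt1, against 28 of the 34 with 4000 to 6000. In the reporter-positive gate the same r was -0.13, and its part in the differences between groups was not tested.

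Set against the CD44-negative gate, the reporter-positive gate was low in both partners. Folds here divide 1 group's mean TPM by the other's after a pseudocount of 1 was added to both, and at least 2-fold is called a difference as a description. Krt1 averaged 42.1 against 562 TPM (log2 fold -3.71, 13.05-fold lower) and Krt10 7.15 against 122.97 TPM (log2 fold -3.93, 15.2-fold lower). Krt80 averaged 2.07 against 15.7 TPM (log2 fold -2.44). Of Krt1, Krt10, Krt79 and Krt80, 3 were at least 2-fold lower, against 4.78% of all 11887 genes tested, and 0 were higher, against 9.8%. Krt77 is left out of the counts here and in the other comparisons, since its mean of 2.37 TPM in the CD44-negative gate rests on 2 cells (193.37 and 21.93 TPM). Krt79 averaged 13.2 and 11.1 TPM (log2 fold 0.23), and it was 1.39 on the log2 scale without the first reporter-positive plate and -0.89 without the second. Over 14 alternative settings the log2 fold of Krt1 lay between -6.56 and -2.50 and that of Krt10 between -5.36 and -1.70. Both of the lowest values came from libraries of 3000 to 6000 genes, which left 6 reporter-positive cells.

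Other differentiation genes were more often higher than lower in that comparison. Of 20 tested genes of a fixed list of early and late differentiation, 10 were at least 2-fold higher in the reporter-positive gate and 3 were lower. Their median log2 fold was 1.05, against 0.07 over all genes tested. Sprr1b, a cornified envelope precursor, averaged 626 against 120 TPM (log2 fold 2.37). Krtdap, a secreted keratinocyte differentiation protein, averaged 1652 against 1078 TPM (log2 fold 0.62), while Calm4, a calcium-binding protein of differentiating keratinocytes, averaged 145.76 against 319.001 TPM (log2 fold -1.12). The basal keratins Krt5 (1689 and 1733 TPM) and Krt14 (6751 and 7114 TPM) were nearly level, with log2 folds of -0.04 and -0.08. Without the second reporter-positive plate the list's median was 0.43, below the 2-fold mark.

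The CD44-positive gate, with 15 cells, also had less Krt1 and Krt10 than the CD44-negative gate. Krt1 averaged 99.1 against 562 TPM (log2 fold -2.49) and Krt10 41.998 against 122.97 TPM (log2 fold -1.53), while Krt80 averaged 17.3 and 15.7 TPM (log2 fold 0.13). Of the 3 members that could be given a fold, 2 were at least 2-fold lower, against 6.18% of all genes tested. Krt79, at 0 in all CD44-positive cells against a mean of 11.1 TPM, was given no fold. Against cells with Xist alone in the CD44-negative gate, which match the CD44-positive cells in that respect, the log2 fold of Krt10 was -0.34, below the 2-fold mark. Of 18 differentiation genes tested, 7 were lower and 1 higher, with a median log2 fold of -0.80 against 0.09 over all genes.

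Between the reporter-positive and the CD44-positive gate the result for Krt1 and Krt10 hung on the measure, and that for Krt80 did so less. In mean TPM, Krt1 was 42.1 against 99.1 (log2 fold -1.22), Krt10 7.15 against 41.998 (log2 fold -2.40) and Krt80 2.07 against 17.3 (log2 fold -2.57). These 3 members of the 3 that could be given a fold were at least 2-fold lower, against 16.5% of all genes tested. Krt79 went the other way, with a mean of 13.2 TPM against 0 in all CD44-positive cells. It was given no fold, though genes at 0 in 1 gate count in that share. As a difference of mean log2(TPM + 1), which weights cells more evenly, Krt1 differed by 0.06, Krt10 by -0.27 and Krt80 by -1.75. Over 13 alternatives the log2 fold of Krt80 lay between -3.09 and -0.83, and 12 stayed past the 2-fold mark. The highest Krt80 values of the CD44-positive gate (79.32 and 76.34 TPM) were in the 2 libraries that matched each other. The 4 CD44-positive cells above 100 TPM set the means, while detection was more frequent in the reporter-positive gate as a whole (74.3% against 40% for Krt1). The share with Krt1 was 87.7% on the first reporter-positive plate and 43.8% on the second. Of the 12 CD44-positive cells led by keratinocyte markers, 6 had Krt1. Of 20 differentiation genes tested, 12 were higher and 1 lower in the reporter-positive gate, with a median log2 fold of 1.35 against -0.03 over all genes. The 2 gates also differed in sex-linked transcripts, and that cannot be told apart from the gate.

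After transfer, Krt1 was at a level near that of the CD44-negative gate, and both Krt1 and Krt10 were far above the reporter-positive gate. Against the reporter-positive gate Krt1 was 14.96-fold higher (644 against 42.1 TPM, log2 fold 3.90) and Krt10 29.2-fold higher (236.58 against 7.15 TPM, log2 fold 4.87). Krt79 (31.995 against 13.2 TPM, log2 fold 1.22) and Krt80 (9.93 against 2.07 TPM, log2 fold 1.83) were above the 2-fold mark as well. These 4 are the members that passed the filter on low values, and 3.17% of all 11711 genes tested were at least 2-fold higher. None of the 4 was lower, against 8.6% of all genes. As a difference of mean log2(TPM + 1), Krt1 and Krt10 remained above the mark at 2.42 and 2.51, while Krt80 was 0.37 and Krt79 -0.30. Without the first reporter-positive plate the log2 fold of Krt79 was 0.06. Over 15 alternatives the log2 fold of Krt1 lay between 2.42 and 7.32 and that of Krt10 between 2.51 and 5.92. The list of differentiation genes was split, with 7 of 22 higher, 6 lower and a median log2 fold of 0.43 against -0.22 over all genes.

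Against the CD44-negative gate, neither partner reached a 2-fold difference after transfer, though Krt10 did in some settings. Krt1 averaged 644 and 562 TPM (log2 fold 0.20) and Krt10 236.58 and 122.97 TPM (log2 fold 0.94). Against CD44-negative cells with Xist alone the log2 fold of Krt10 was 2.12, and against those with Y-linked transcripts alone 0.22. Of Krt1, Krt10, Krt79 and Krt80, Krt79 alone was higher in mean TPM (31.995 against 11.1, log2 fold 1.45), where 3.91% of all genes tested were at least 2-fold higher. As a difference of mean log2(TPM + 1) it was 0.041, and Krt79 was detected in 6.78% of cells after transfer and 8.79% of CD44-negative cells. Krt80 averaged 9.93 and 15.7 TPM (log2 fold -0.61), and none of the 4 was lower, against 4.71% of all genes. Of 21 differentiation genes tested, 15 were higher and 0 lower, with a median log2 fold of 1.41 against -0.13 over all genes. Sprr1b averaged 583 against 120 TPM (log2 fold 2.27) and Krt6b, a keratin of stressed and wounded epidermis, 1780 against 602 TPM (log2 fold 1.56). Both comparisons share the cells after transfer.

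Krt1 and Krt10 were usually found in the same cell. Over the cells of all 5 groups, 56.8% had both (exact 95% interval 52.02% to 61.6%), while 35 cells had Krt1 alone and 32 had Krt10 alone. Cells with both made up 78.5% of those with either (73.5% to 82.95%). Krt10 was detected in 87.5% of cells with Krt1 and in 21.2% of cells without it. The share with both among cells with either was 86.1% in the CD44-negative gate (62 of 72 cells), 81.1% after transfer and 75.0% in the reporter-positive gate (63 of 84). It was 5 of 7 cells in the CD44-positive gate and 8 of 17, or 47.1%, in the α6-negative gate. The exact interval of the last was 22.98% to 72.2%. It was 64.4% to 83.8% in the reporter-positive gate, 75.9% to 93.1% in the CD44-negative gate and 73.3% to 87.4% after transfer. These intervals cover the counting of cells only, so no difference between groups is read from them. Among the 26 α6-negative cells led by keratinocyte markers, 8 had Krt1, 15 had Krt10 and 0 had Krt1 without Krt10.

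**Figure D2:**
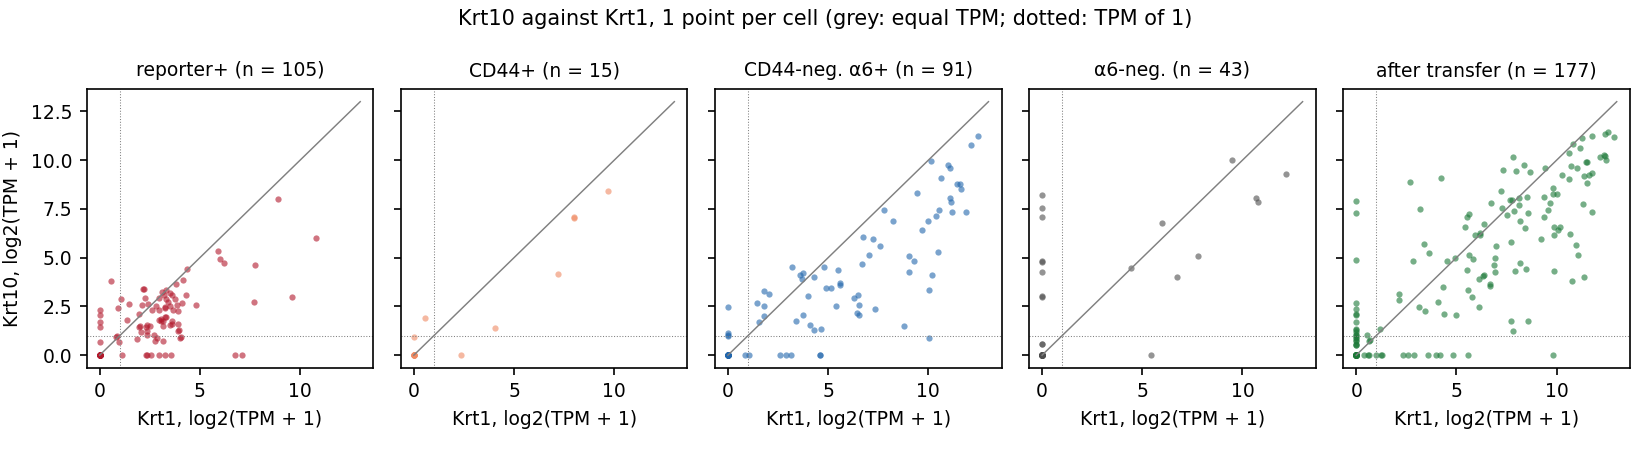
Krt10 against Krt1 in each cell as log2(TPM + 1), 1 panel per group; the grey line is equal TPM and dotted lines mark a TPM of 1. Most reporter-positive, CD44-negative and after-transfer cells with both transcripts lie below the line of equal level. The column of α6-negative cells at the left edge holds Krt10 of up to 298.13 TPM without Krt1.

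The chance of seeing the partner rose with the level of the other. Krt10 was detected in 72.6% of cells with Krt1 of 1 to 10 TPM, 86.4% at 10 to 100, 95.7% at 100 to 1000 and 98.2% at 1000 or more. Krt1 was detected in 22.7% of cells without Krt10 and in 80.5%, 93.4%, 93.1% and 100% over the same steps of Krt10. Among the cells with Krt1 of at least 100 TPM, 4 lacked Krt10, at Krt1 of 106.05, 135.25, 890.33 and 1039.04 TPM. Unpaired cells mostly had little of the partner they showed: the median was 7.74 TPM of Krt1 in cells with Krt1 alone and 4.10 TPM of Krt10 in cells with Krt10 alone.

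**Figure D3:**
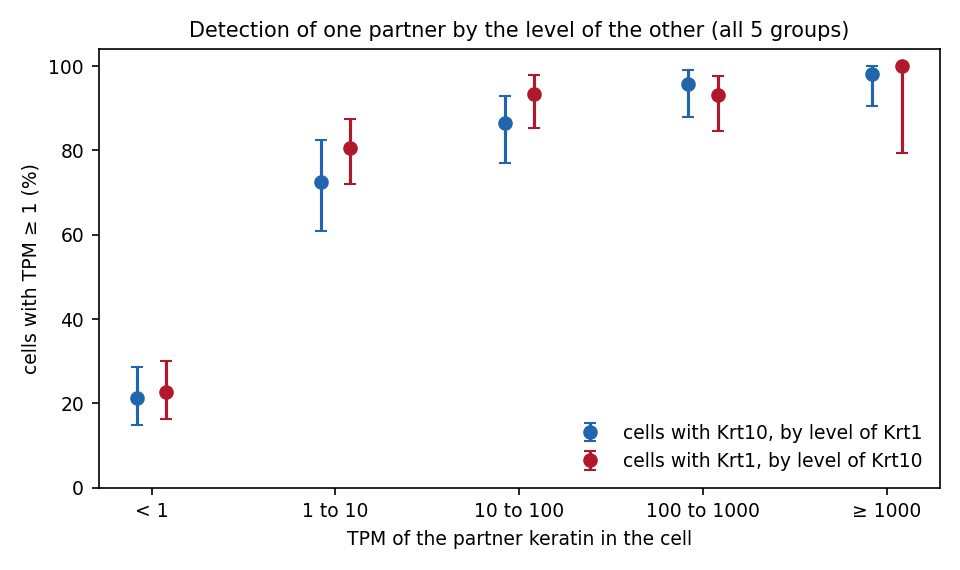
Share of cells with a TPM of at least 1 for Krt10 by the level of Krt1 (blue) and for Krt1 by the level of Krt10 (red), over the cells of all 5 groups, with exact Clopper-Pearson 95% intervals. Detection goes from 21.2% to 98.2% for Krt10 and from 22.7% to 100% for Krt1 as the partner's level increases.

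Repeat libraries of the same wells show how detection repeated, in wells whose 2 libraries were each other's best match. These were 46 of 87 and 41 of 90 kept cells on the plates after transfer, 71 of 73 and 29 of 32 on the reporter-positive plates and 14 of 15 in the CD44-positive gate, so agreement is given for libraries chosen as alike. Among cells with Krt1 in either of their 2 libraries, 93.2% had it in both, while 4 had it in the first alone and 6 in the repeat alone. For Krt10 the share was 81.8%, with 13 and 14 cells that had it in 1 library alone. Where either library had at least 10 TPM, both detected Krt1 (89 of 89 cells) and Krt10 (65 of 65), while Krt80 was in both in 28 of 29 cells and missed once at 53.2 TPM. Of 19 cells with Krt1 alone in the first library, the repeat showed both partners in 7 and Krt1 alone in 10. Of 12 cells with Krt10 alone, the repeat showed both in 5, Krt10 alone in 1, Krt1 alone in 1 and neither in 5. Of the cells with both in the first library, 5 showed Krt1 alone and 2 neither in the repeat, and the rest had both again. Levels repeated closely, with a median absolute log2 difference of 0.22 for Krt1 and 0.35 for Krt10 in cells where both libraries detected them.

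Among cells with both, the median ratio of Krt1 to Krt10 was 2.75. Krt1 was the higher in 51 of 63 such reporter-positive cells, 52 of 62 CD44-negative cells and, on the 2 plates after transfer, 33 of 43 and 45 of 64 cells. TPM is per length, so the 2 levels can be set side by side. The median ratio was 2.14 in the reporter-positive gate, 3.95 in the CD44-negative gate and 2.66 after transfer, and the ranges from the lower to the upper quartile overlapped (1.27 to 3.23, 2.10 to 11.6 and 0.95 to 5.73). Over single cells the Pearson r of log2(TPM + 1) between Krt1 and Krt10 was 0.63 in the reporter-positive gate, 0.86 in the CD44-negative gate, 0.69 in the α6-negative gate and 0.83 after transfer. In the 15 CD44-positive cells it was 0.95. These r are descriptions, since the cells of a group share their plates and animals, and cells with neither transcript add to them.

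Krt79 had its highest mean in the α6-negative gate. There it averaged 1202 TPM, with a median of 0 and a highest value of 7091, and it was detected in 19 of 43 cells. The 19 cells fell apart into 5 of 7.14 to 72.0 TPM and 14 of 1189 to 7091 TPM, with none between. They also differed by position on the plate of this gate. Krt79 was detected in 7 of 27 cells in rows A to D and in 12 of 16 in rows E to H. Rows E to H averaged 2777 TPM, above the mean of the whole gate. The part of plate position in the level of Krt79 was not tested. All 14 cells of 1189 TPM or more were led by keratinocyte markers, and Krt79 was detected in 18 of the 26 α6-negative cells so led. The reporter-positive gate averaged 13.2 TPM, with 18 cells detected and a highest value of 470. The CD44-negative gate averaged 11.1 TPM, with 8 of 91 cells and a highest value of 565. After transfer the mean was 31.995 TPM, with 12 cells and a highest value of 1413. In the CD44-positive gate Krt79 was listed at 0 in all 15 cells, with an exact 95% interval of 0% to 21.8% for the share of cells.

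**Figure D4:**
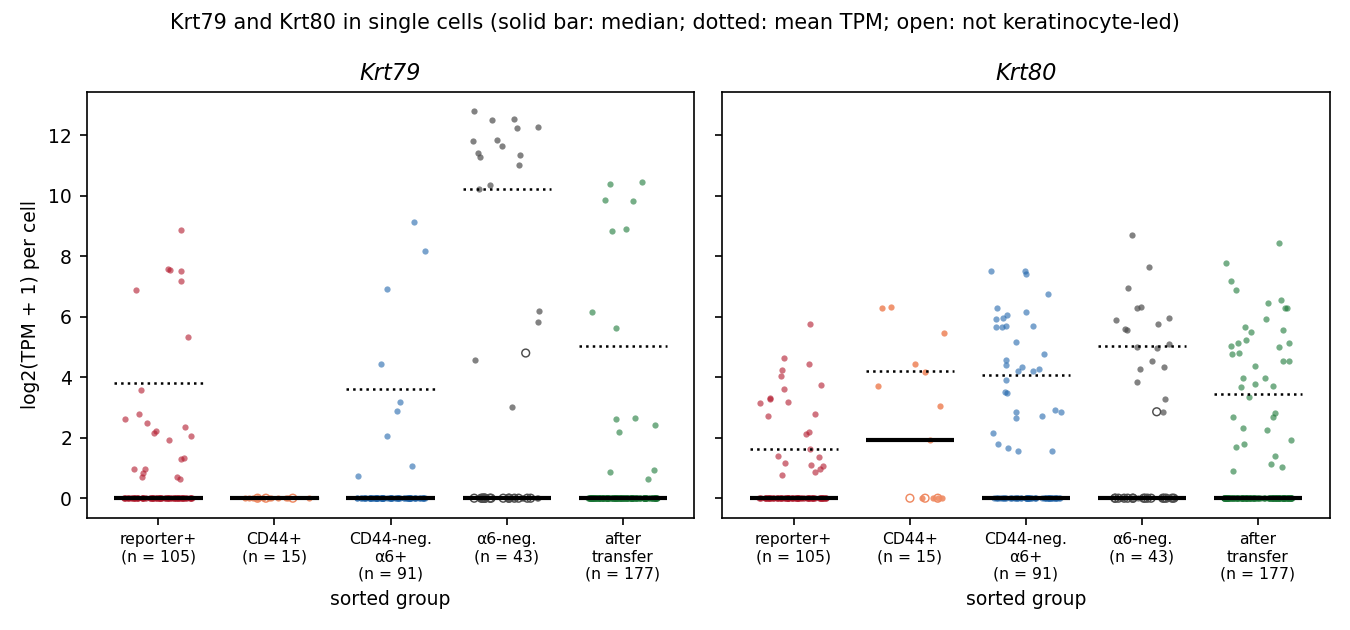
Level of Krt79 (left) and Krt80 (right) in each cell as log2(TPM + 1), by sorted group, with the median (solid bar), the mean TPM (dotted bar) and cells not led by keratinocyte markers (open circles). A cluster of 14 α6-negative cells stands between 1189 and 7091 TPM of Krt79, a range reached by 2 cells after transfer and by none of the other 3 groups.

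The CD44-negative gate was 99.4-fold lower in Krt79 than the α6-negative gate (log2 fold -6.64), and over 11 alternatives the log2 fold lay between -7.36 and -3.94. Krt1 went the other way (562 against 212.91 TPM, log2 fold 1.39, or 3.51 as a difference of mean log2(TPM + 1)) and Krt10 averaged 122.97 against 71.2 TPM (log2 fold 0.78). With α6-negative cells led by keratinocyte markers alone, the log2 fold of Krt1 was 0.68, below the 2-fold mark. Krt80 averaged 15.7 against 31.4 TPM (log2 fold -0.96). Over 11 alternatives its log2 fold lay between -1.66, with those cells, and 0.30, so its direction hung on the setting. Of Krt1, Krt10, Krt79 and Krt80, Krt1 alone was at least 2-fold higher in the CD44-negative gate, against 8.66% of all genes tested, and Krt79 alone was lower, against 25.7%. Krt79 made up 78.8% of the summed TPM of the 6 keratins in the α6-negative gate, where Krt1 made up 13.96%. In the reporter-positive, CD44-positive, CD44-negative and after-transfer groups Krt1 made up 65.1%, 62.6%, 78.7% and 69.8%. Of the basal keratins, Krt5 (208.52 against 1733 TPM) and Krt14 (2525 against 7114 TPM) were lower in the α6-negative gate and Krt15 averaged 117.403 against 74.4 TPM. Of 22 differentiation genes tested, 15 were lower and 2 higher in the CD44-negative gate (median log2 fold -2.04, against -0.31 over all genes). The α6-negative gate's other cell types and its fewer genes per cell moved with these differences. So did its spike-in share (a median of 2.78%, against at most 0.615% on the other plates). Krt79 also differed by plate rows within that gate. The part of each of these beyond the values given was not tested.

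Krt79 did not track Krt1 and Krt10 over cells. Among the 57 cells with Krt79 over all groups, 24 had Krt1 and 30 had Krt10. Among the 19 such α6-negative cells, 3 had Krt1 and 10 had Krt10. The α6-negative cells with Krt10 but no Krt1 were 8, of which 7 had Krt79, at 56.3 to 7091 TPM. The eighth was led by fibroblast markers. In 3 of these cells Krt10 was above 100 TPM (133.97, 184.25 and 298.13) and Krt1 was at 0. Only 2 cells of the other groups, both after transfer, had Krt10 above 100 TPM without Krt1 (154.05 and 242.72 TPM), and neither had Krt79. These cells were singled out after their values were seen. The repeat library of the cell at 154.05 TPM had Krt1 at 1.07 TPM and Krt10 at 150.8 TPM. The repeat libraries compared covered no α6-negative cell. Over the cells of all groups the r between Krt79 and Krt10 was -0.06 and between Krt79 and Krt1 -0.16.

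Krt77 and Krt78 were rare. Krt77 was detected in 14 cells and Krt78 in 6, with highest values of 193.37 and 16.99 TPM. The 14 cells with Krt77 split by gate, a pattern noticed after the values were seen. All 6 in the α6-negative gate had Krt79 of 1317 to 7091 TPM and 0 TPM of Krt1. The other 8, of which 2 were CD44-negative and 6 after transfer, all had both Krt1 and Krt10 and none had Krt79 at a TPM of 1. All 6 cells with Krt78 had both Krt1 and Krt10. They were 2 reporter-positive cells, 1 α6-negative cell and 3 cells after transfer. The α6-negative one (Krt78 5.45 TPM, Krt79 3680, Krt10 1045, Krt1 714 and Krt80 58.2 TPM) was the only cell of those compared with 5 of the 6 keratins. With so few cells, no order of the groups can be read for these 2 genes.

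Krt80 was spread thinly over all groups. Its share of detected cells was 20% in the reporter-positive gate (exact 95% interval 12.8% to 28.9%), 8 of 15 in the CD44-positive gate, 37.4% in the CD44-negative gate (27.4% to 48.1%), 46.5% in the α6-negative gate (31.2% to 62.3%) and 22.03% after transfer (16.2% to 28.9%). Its means were 2.07, 17.3, 15.7, 31.4 and 9.93 TPM in that order, and its highest value was 417.88 TPM, in an α6-negative cell. The lowest mean was again in the reporter-positive gate, where no cell reached 100 TPM. The 20 α6-negative cells with Krt80 included 14 with Krt79, and the r between the 2 in that gate was 0.62, or 0.37 in its 26 cells led by keratinocyte markers. With Krt1 the r of Krt80 was 0.22 over all cells.

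Genes most like each keratin were found by Pearson r of log2(TPM + 1) over the cells of all groups after each plate's mean had been subtracted, among 11847 rows detected in at least 10% of cells. Krt10 was closer to Krt1 (r = 0.81) than any of the 11843 rows outside the keratins described here. For Krt1 the next were Calm4 (0.67), the desmosomal cadherin Dsc1 (0.62), the threonine dehydrogenase Tdh (0.60), the desmosomal cadherin Dsg1a (0.60) and the thioesterase Them5 (0.58). For Krt10 they included Dsc1 (0.65), Calm4 (0.64), Dsg1a (0.62) and Tdh (0.60). Calm4, Dsc1 and Dsg1a are on the fixed list of differentiation genes. Krt79 was most like Skint3 (0.51), the zinc finger factor Egr2 (0.49) and the forkhead factor Foxc1 (0.47). Krt80 was most like Oas1f (0.52), Tmem45a (0.51) and Tprg (0.51). Within groups the r of Krt1 with Calm4 was 0.43 in the reporter-positive gate, 0.85 in the CD44-negative gate and 0.67 after transfer, and that of Krt79 with Foxc1 was 0.77 in the α6-negative gate and -0.14 in the reporter-positive gate.

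**Figure D5:**
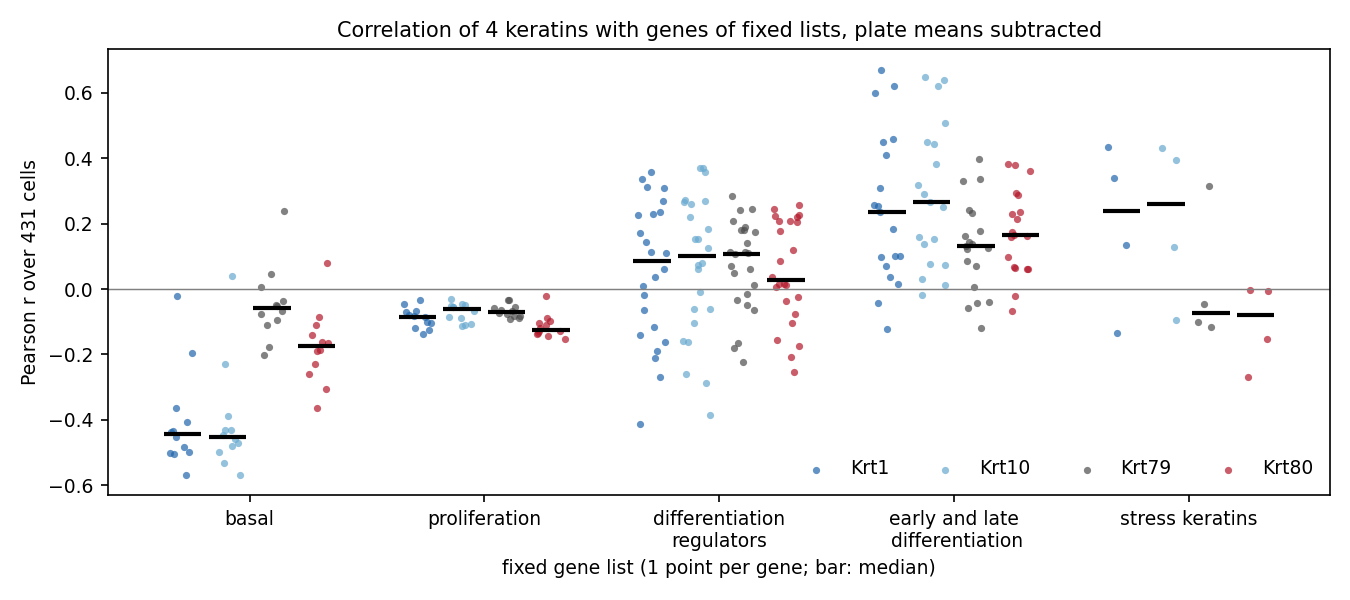
Pearson r of log2(TPM + 1) between 4 keratins and each gene of 5 fixed lists over the cells of all groups, with plate means subtracted; 1 point per gene, and the bar is the list's median. The basal genes lie below 0 for Krt1 and, except Krt14, for Krt10, with medians of -0.44 and -0.45, and near 0 for Krt79, with a median of -0.06.

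Cells with more Krt1 had less of the basal programme. The r of Krt1 was below 0 with 12 of 12 basal genes (median -0.44), the most with Itgb4, the hemidesmosomal integrin β4 (-0.57). It was -0.50 with Itgb1, integrin β1, and with Col17a1, the hemidesmosomal collagen. The exception in size was the basal keratin Krt14 (-0.02), while its partner Krt5 had -0.36. Krt10 gave a median of -0.45, with Krt14 alone above 0 (0.04). Krt79 had a median of -0.06 with the same genes. Subtracting plate means takes out differences between gates, such as the lower Krt5 of the α6-negative gate (208.52 against 1733 TPM in the CD44-negative gate). The cells also included the 17 α6-negative cells led by fibroblast, pericyte or muscle markers. How Krt79 moved with the basal genes in cells led by keratinocyte markers alone was not tested. Over all rows compared, the median r was -0.05 for Krt1 and Krt10 and -0.02 for Krt79, and the 95th percentile 0.14 for Krt1.

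With the differentiation list Krt1 had a median r of 0.24, and 17 of 19 genes were above 0. Besides Calm4, Dsc1 and Dsg1a, the highest were Krtdap (0.46), Casp14, the caspase of cornification (0.45), and Tgm3, a transglutaminase of the cornified envelope (0.41). Ivl, the envelope precursor involucrin, had -0.12 and Cdsn, corneodesmosin, -0.04. Among 24 regulators of differentiation Krt1 had a median of 0.09, with 15 above 0. Zfp750 (0.36), Grhl1 (0.34), Notch3 (0.31) and Ovol1 (0.31), all regulators of the epidermis, were highest, and Jag2, a Notch ligand, was lowest (-0.41). Notch1 had -0.21. Among stress keratins Krt16 had 0.44, Krt6b 0.34, Krt6a 0.13 and Krt17 -0.13. With 12 proliferation genes the median was -0.08 for Krt1 and -0.06 for Krt10, near the -0.05 over all rows compared. The r of Krt79 was highest with Klk7, a protease of shedding corneocytes (0.40), on the differentiation list.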

How the data were processed

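Each library is 1 sorted well, and the authors deposited TPM per gene and library in 2 tables, 1 for libraries labelled before and 1 for those labelled after transfer. RSEM 1.2.30 and Bowtie2 2.2.9 are named, with the genome build mm10, in the submitters' processing notes. The annotation and the handling of reads that map to several keratins or to spike-ins are not given in the sources used here. Read depth cannot be had from TPM, and the number of genes detected (TPM of 1 or more) served in its place; ribosomal rows took medians of 66.1% to 76.4% of TPM per plate. Columns were tied to groups by plate name and sample title.

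Libraries with under 2000 genes and 4 plates that repeat wells of others (OT1, OT_A, OT_C, OT_D) were left out of the groups. Repeat pairs were same-well libraries that were each other's best match by r of log2(TPM + 1). A cell was led by the marker list of highest mean log2(TPM + 1). Folds divide mean TPM plus 1 between groups, for genes with a mean of at least 1 in either. Members listed at 0 throughout a group got no fold. Other genes at 0 in a group kept theirs in the list counts, the medians and the shares of all genes. The members and gene lists were chosen with earlier results of these data known. Besides the members, the text names the 5 genes most like Krt1 and Krt10, the 3 most like Krt79 and Krt80, list members of the highest mean TPM and, chosen after their values were seen, other members of the lists with high or low r. Some genes that this rule names are not reported here. The TATA motif was chosen after seeing the data. Folds and r were tested on simulated data. Python 3.11.15 was used with numpy 2.4.6, pandas 2.3.3, scipy 1.17.1 and matplotlib 3.10.9.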

Additional observations from a re-analysis of the deposited data

How the results depend on the processing

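Over the alternatives run, Krt1 and Krt10 stayed at least 2-fold lower in the reporter-positive than in the CD44-negative gate and at least 2-fold higher after transfer than in the reporter-positive gate, and Krt79 stayed at least 2-fold lower in the CD44-negative than in the α6-negative gate. Other results moved, and the cause was not tested. These choices were made after seeing the data: leaving out 1 library of each matched pair within a group, adding the repeat plates after transfer as labelled, and keeping first libraries of cells with a repeat. No paired analysis was possible because no replicate numbers tie the gates to each other and no result comes from a test.

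With a difference of mean log2(TPM + 1), Krt1 was 0.060 and Krt10 -0.27 between the reporter-positive and CD44-positive gates, Krt10 was 1.18 between the CD44-negative and α6-negative gates, and after transfer Krt1 was -0.082 against the CD44-negative gate and Krt79 -0.30 against the reporter-positive gate. With no minimum of genes, Krt1 was -0.75 between the reporter-positive and CD44-positive gates and Krt10 -0.36 between the CD44-positive and CD44-negative gates. With CD44-negative cells with Xist alone, the log2 fold of Krt10 was -0.34 for the CD44-positive gate, 2.12 after transfer and -0.40 against the α6-negative gate, and that of Krt1 against the α6-negative gate was 0.74. With CD44-negative cells with Y-linked transcripts alone, Krt10 against the α6-negative gate was 1.496 and Krt1 after transfer -0.33. With cells led by keratinocyte markers alone, Krt1 between the CD44-negative and α6-negative gates was 0.68. After transfer against the CD44-negative gate, Krt10 was 1.15 without spike-in and ribosomal rows and 1.03 without the first plate, and Krt1 was -0.46 with the repeat plates added as labelled. In libraries of 3000 to 6000 genes, the log2 folds between the CD44-negative and α6-negative gates were 0.73 for Krt1, 1.22 for Krt10 and 0.59 for Krt77, and Krt79 after transfer against the reporter-positive gate was -0.90.

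The median of the differentiation list, reporter-positive over CD44-negative, was 0.53 without spike-in and ribosomal rows, 0.63 with a pseudocount of 5, 0.43 without the second plate, 0.997 with repeat libraries and 0.75 with Y-linked CD44-negative cells. Reporter-positive over CD44-positive, it was 0.87 with a pseudocount of 5 and 0.54 with no minimum of genes. CD44-positive over CD44-negative, it was -1.04 without spike-in and ribosomal rows, -2.80 in libraries of 3000 to 6000 genes, -1.14 with repeat libraries and -1.10 with their first libraries. After transfer over reporter-positive, it was -0.26 in libraries of 3000 to 6000 genes, 1.06 without the second reporter-positive plate, -0.043 with repeat libraries and -0.18 with their first libraries.

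The share of cells with Krt1 at 10 and 100 TPM was 30.5% and 6.67% in the reporter-positive gate, 62.6% and 37.4% in the CD44-negative gate, and 58.8% and 42.4% after transfer. For Krt10 it was 9.52% and 0.952%, 43.96% and 20.9%, and 54.2% and 32.2%, and 18.6% at 100 TPM in the α6-negative gate. Cells with both among those with either were 27.3% and 14.3% in the reporter-positive gate, 67.2% and 55.9% in the CD44-negative gate and, at 100 TPM, 59.04% after transfer. Without a plate, the reporter-positive shares were 43.8% and 87.7% for Krt1, 34.4% and 79.5% for Krt10, and 56.3% for both among either without the first plate. After transfer they were 80% and 52.9% for Krt1 and 76.7% and 59.8% for Krt10. With no minimum of genes, reporter-positive shares were 56.96% for Krt1 and 50% for Krt10. Without spike-in and ribosomal rows they were 75.2% for Krt10 and 84.1% for both among either. In libraries of 3000 to 6000 genes, shares of Krt1 and of Krt10 were each 33.3% in the reporter-positive gate, 0% in the CD44-positive gate (3 cells) and 81.8% after transfer, and both among either were 33.3% in the reporter-positive gate, 72.7% in the CD44-negative gate and 89.5% after transfer. In CD44-negative cells with Xist alone, Krt1, Krt10 and both among either were 50%, 45.2% and 66.7%, and with Y-linked transcripts alone 100%, 95.5% and 95.5%. In α6-negative cells led by keratinocyte markers Krt10 was in 57.7%. TPM keeps no read depth, so a transcript listed at 0 may be a missed one. In cells with a repeat, 1 of the 2 libraries missed Krt1 at up to 8.53 TPM and Krt10 at up to 8.71 TPM. Krt80 was missed once at 53.2 TPM.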
